A study of Mus musculus with 8 samples.

Results

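Imprinted genes of the mouse were followed across the cell types of 2 brain regions, the prefrontal cortex (PFC) and the striatum. The members were Nnat, Meg3, Peg3, Snrpn, Rian, Ndn, Dlk1, Impact, Cdkn1c and Igf2, found by their symbols in the gene list of the count matrices. Of these 10 genes, 9 had a row among the 31053 genes of the list, and Rian was not analysed here. The members were chosen with their levels by cell type already known, so those levels are given as a description with no test.

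Genomic imprinting is the expression of a gene mainly from the copy inherited from one parent, set by DNA methylation laid down in the germ line. Many imprinted genes act on growth, and several are strongly expressed in neurons. In mice, Nnat, Peg3, Snrpn, Ndn, Dlk1, Impact and Igf2 are known as paternally expressed and Meg3, Rian and Cdkn1c as maternally expressed, although Dlk1 and Igf2 are also known to escape imprinting in certain brain cells. The counts used here do not tell the parental copies apart, so every value is the sum of both.

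Single-cell RNA sequencing with the 10x Chromium platform was performed on male C57BL/6N mice that were wild type (WT) or heterozygous for a frameshift deletion in Setd1a (Setd1a+/-), a gene for a histone H3K4 methyltransferase. There were 8 libraries, 2 WT and 2 Setd1a+/- for each tissue, and each library pooled the tissue of 2 mice. The mice were untreated and 8 to 10 weeks old per the labels, whereas the study's methods give an older age, and the Setd1a+/- mice descend from CRISPR-edited founders crossed to C57BL/6N. The labels give the striatal samples as nucleus accumbens (NAc), whereas the design text describes dorsal and ventral striatum. The deletion is in the germ line, so every cell of these mice carries it, and the controls were WT littermates.

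The 23687 annotated cells fall into 8 PFC types and 10 striatal types, namely excitatory neurons (Excit, with 7 subtypes), inhibitory interneurons (Inhib), D1 and D2 medium spiny neurons (MSNs), neural stem cells and neuroblasts (NB), astrocytes (Astro), oligodendrocyte progenitor cells (OPC), newly formed oligodendrocytes (NFO), oligodendrocytes (Oligo), microglia (Micro) and endothelial cells (Endo). Each library held 1508 to 4361 annotated cells with 5999666 to 13521114 UMIs, and no pair of libraries shared more than 24 cell barcodes. Setd1a reached 8.45 and 11.2 counts per 1000000 UMIs (CPM) in the WT and 5.59 and 9.33 CPM in the Setd1a+/- libraries of the PFC, which overlap, and 13.4 and 15.2 against 9.16 and 12.5 CPM in the striatum, which do not. All 24 fixed markers of the PFC types and 29 of 30 of the striatal types were highest in their own annotation. The exception was Gad2, highest in D1 MSNs, and the striatal interneuron annotation also held the excitatory marker Slc17a7 at 189 CPM. The endothelial annotation holds many cells with mural markers, as given with Cdkn1c. Levels below are CPM of the UMIs summed over a type in a library, and free RNA is the CPM of the same gene in barcodes of 1 to 50 UMIs, which hold no cell.

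The Dlk1 and Meg3 genes are neighbours on chromosome 12 in the same imprinted cluster, and Nnat lies on chromosome 2 within the span of Blcap on the other strand. The 250 bases before the RefSeq start of each (GRCm38.p6, plus strand) are shown because Dlk1 and Meg3, although neighbours, had different profiles in the PFC, and because Nnat passed the test between tissues in most shared cell types. Capitals mark the CG dinucleotides, the bases that carry DNA methylation. The Dlk1 stretch is chr12:109452573-109452822, the first Meg3 stretch is chr12:109540746-109540995 and the Nnat stretch is chr2:157559828-157560077.
Dlk1: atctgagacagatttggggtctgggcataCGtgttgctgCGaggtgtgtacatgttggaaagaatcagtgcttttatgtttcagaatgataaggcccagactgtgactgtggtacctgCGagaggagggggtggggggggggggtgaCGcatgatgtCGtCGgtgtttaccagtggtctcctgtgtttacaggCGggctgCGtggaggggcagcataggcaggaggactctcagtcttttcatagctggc
Meg3: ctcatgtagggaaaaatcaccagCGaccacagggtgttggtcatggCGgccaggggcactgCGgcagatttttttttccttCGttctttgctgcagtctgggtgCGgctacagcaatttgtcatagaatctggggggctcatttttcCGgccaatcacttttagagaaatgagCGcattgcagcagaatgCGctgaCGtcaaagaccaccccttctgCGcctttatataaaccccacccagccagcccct
Nnat: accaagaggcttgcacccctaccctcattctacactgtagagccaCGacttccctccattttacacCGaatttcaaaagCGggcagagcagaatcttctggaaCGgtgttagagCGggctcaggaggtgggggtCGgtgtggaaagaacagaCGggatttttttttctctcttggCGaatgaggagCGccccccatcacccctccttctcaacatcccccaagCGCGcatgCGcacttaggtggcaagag
In windows of 300 bases around the start (250 before, 50 after), the CG count, which is the same on both strands, was 9 for Dlk1, 13 for this Meg3 start and 17 for Nnat. Of 15 windows found for 8 members, 6 windows of 5 members held 10 or more CG, where 43.5% of all 32851 windows did. These include the window of Rian, with 0 CG, although its level was not measured. No window was found for Cdkn1c or Impact. These sequences are context only, since neither methylation nor binding was measured here.

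Most members were highest in neurons. Of the 18 pairs of a member and a tissue, 12 had their highest mean level in excitatory neurons, interneurons or MSNs. The exceptions were Nnat, Cdkn1c and Igf2 in both tissues. No share over all genes is given beside this count, so it is not read as a trait of imprinted genes. The highest types of Dlk1 in the PFC and of Igf2 in either tissue rest on 5 UMIs each and are not determined, because the limits of zero counts in other types reach above those levels. The levels of a gene are compared across cell types only, because CPM does not correct for how well each transcript is captured.

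**Figure D1:**
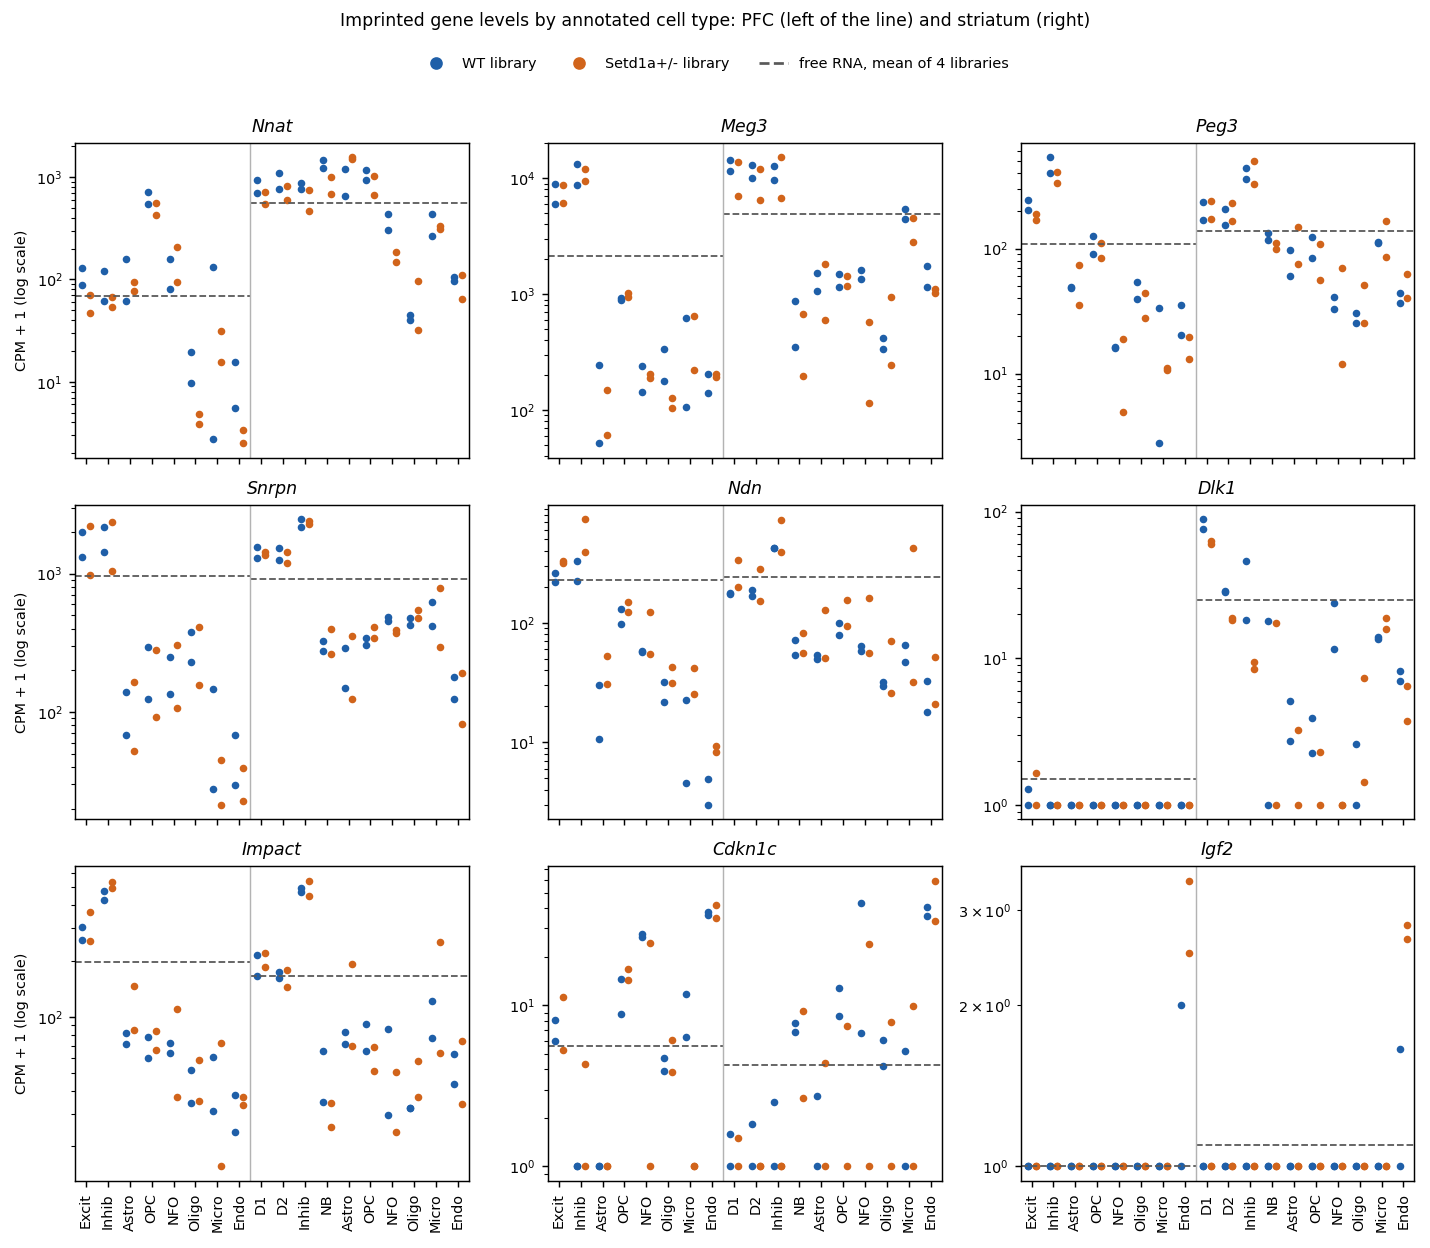
Levels of the 9 measured members, as CPM + 1 on a log axis, for 8 PFC types (left of the grey line) and 10 striatal types (right). Each point is a library (blue WT, orange Setd1a+/-), and dashed lines give the mean free RNA of the tissue. Meg3, Peg3, Snrpn, Ndn and Impact peak in neuronal types, Dlk1 is at or near 0 in the PFC and 59.0 to 87.9 CPM in D1 MSNs, and Cdkn1c peaks in endothelial cells.

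Meg3 (ENSMUSG00000021268, mm10 chr12:109541001-109571726, plus strand) is a long noncoding RNA and had the highest CPM of the members, which is not corrected for capture. In the PFC it reached 13363 and 8817 CPM for the WT and 12133 and 9543 CPM in the Setd1a+/- interneurons. Excitatory neurons followed with 8906 and 6016 CPM for WT and 8715 and 6092 CPM for Setd1a+/-. The ranges of both types overlap. In the striatum, the mean over the 4 libraries was 11692 ± 3354 CPM (SD, n = 4) in D1 MSNs, 11067 ± 3646 in interneurons and 10319 ± 2847 in D2 MSNs, with overlapping ranges. Glia were far lower, since PFC astrocytes held 126 ± 91.1 CPM and PFC oligodendrocytes 186 ± 105 CPM. Among glia of the PFC, OPC stood out with 949 ± 59.0 CPM and no overlap with the other non-neuronal types, at 44.1% of the free RNA level. Free RNA itself held 1897 to 2727 CPM of Meg3 in the PFC and 3384 to 7449 CPM in the striatum. All glial means lie below the mean free RNA of their tissue, with striatal microglia nearest, at 4295 ± 1082 CPM against 4950.5 CPM. In these microglia 1 of 4 libraries lies above its own free RNA. Barcodes of 51 to 100 UMIs, an alternative for free RNA, held 2413 to 2722 CPM of Meg3 in the striatum. Against these, 4 of 4 microglial libraries lie above.

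Dlk1 (ENSMUSG00000040856, chr12:109452823-109463336, plus strand) encodes a transmembrane protein with EGF-like repeats of the Notch ligand family. Its pattern was unlike that of its neighbour Meg3 in the PFC, although its highest striatal mean was also in D1 MSNs. In the PFC it was at 0 in all 4 libraries in 7 of 8 types, and excitatory neurons held 5 UMIs in 2775 cells. A count of 0 in the 298 PFC interneurons allows up to 1.87 CPM over the group and up to 1.01% of cells with a UMI, for counting error only. In the striatum, D1 MSNs held 87.9 and 75.1 CPM for WT and 59.0 and 62.4 CPM for Setd1a+/-. D2 MSNs held 27.6 and 27.1 CPM for WT and 17.2 and 17.7 CPM for Setd1a+/-, so all D1 libraries lie above all D2 libraries. The share of D1 MSNs with a UMI of Dlk1 was 14.2% on average (11.8 to 16.9%), against 5.62% of D2 MSNs and 0.235% of OPC. After thinning every cell to 1000 UMIs these shares were 6.38%, 2.48% and 0.107%. The median UMI count per cell was 2657 to 3664 for D1, 2740.5 to 4093 for D2 and 1351 to 1729 for OPC. Free RNA held 15.8 to 29.2 CPM, so the D1 level lies above it in 4 of 4 libraries and the D2 level is at the level of free RNA.

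Snrpn (ENSMUSG00000102252, chr7:59982495-60140219, minus strand) encodes a protein of the spliceosome and overlaps Snurf on the same strand, so their reads cannot be told apart. Snrpn was highest in interneurons, with 2171 and 2479.9 CPM for WT and 2277 and 2399 CPM for Setd1a+/- of the striatum. D1 MSNs held 1412 ± 105 CPM and D2 MSNs 1349.8 ± 157 CPM, below every interneuron library. In the PFC, interneurons (1751 ± 613 CPM) and excitatory neurons (1619.9 ± 576 CPM) overlapped. Oligodendrocytes were the highest PFC glia at 293 ± 121 CPM, and endothelial cells the lowest type at 39.1 ± 20.2 CPM. Free RNA held 502 to 1384 CPM of Snrpn in the PFC and 800.4 to 1011 CPM in the striatum. Every glial and endothelial mean lies below the mean of free RNA. PFC oligodendrocytes were at 30.6% of it for Snrpn and at 4.88% for the excitatory neuron markers. Striatal oligodendrocytes were at 52.8% for Snrpn and at 8.03% for the MSN markers. The part of free RNA in these levels was not tested.

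Ndn (ENSMUSG00000033585, chr7:62346569-62350262, plus strand) encodes necdin, a MAGE family protein of postmitotic neurons, in the same imprinted region as Snrpn. Its levels in PFC excitatory neurons depended on the subtype. DL-Tshz2 neurons held 412 and 485 CPM for WT and 695 and 747 CPM for Setd1a+/-, and DL-Foxp2 neurons held 428 and 325 CPM for WT and 453 and 598 CPM for Setd1a+/-. The ranges of these deep-layer subtypes overlap. SL-Myh7 neurons were lowest, at 153 ± 63.7 CPM. Striatal interneurons held 487 ± 159 CPM against 219.9 ± 74.8 CPM in D1 and 196 ± 56.8 CPM in D2 MSNs, with no overlap between interneurons and either MSN type. Free RNA held 163 to 295 CPM in the PFC and 167 to 379 CPM in the striatum, and the means of SL-Cux2, SL-Myh7, DL-Etv1 and DL-Nnat neurons and of both MSN types lie below the mean of free RNA in their tissue.

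Peg3 (ENSMUSG00000002265, chr7:6703892-6730431, minus strand) encodes a zinc finger transcription factor and Impact (ENSMUSG00000024423, chr18:12955852-12992950, plus strand) an inhibitor of the stress kinase GCN2. Both were highest in interneurons of both tissues. Peg3 reached 534 and 400.3 CPM for WT and 335 and 410.4 CPM for Setd1a+/- interneurons of the PFC, above all libraries of excitatory neurons (168 to 243 CPM). Striatal interneurons held 405 ± 80.0 CPM, above D1 MSNs at 203 ± 39.0 CPM. Impact reached 477 and 424 CPM for WT and 495 and 536 CPM for Setd1a+/- interneurons of the PFC. In striatal interneurons it held 489.8 ± 40.4 CPM, against 196 ± 25.5 CPM in D1 and 164 ± 15.0 CPM in D2 MSNs, with no overlap. The DL-Tshz2 subtype was the highest excitatory subtype for both genes, with 384 ± 105 CPM of Peg3, which overlaps DL-Pou3f1, DL-Foxp2 and SL-Myh7 neurons, and 527 ± 52.9 CPM of Impact, which overlaps no other subtype. It was also the highest subtype for Meg3 (10643 ± 1709 CPM) and Snrpn (2026 ± 785 CPM), whose ranges overlap those of other subtypes. Free RNA held 80.6 to 153 CPM of Peg3 and 162 to 239 CPM of Impact in the PFC, and 131 to 146 and 128 to 215 CPM in the striatum. Interneurons lay above it in 4 of 4 libraries for both genes in both tissues. Impact in D1 and D2 MSNs lay above it in 3 of 4 libraries each, and the D2 mean is at the level of free RNA.

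Nnat (ENSMUSG00000067786, chr2:157560078-157562522, plus strand) encodes neuronatin, a small membrane protein of the endoplasmic reticulum. In the PFC it was highest in OPC, with 538 and 716 CPM for WT and 428 and 557 CPM for Setd1a+/-. No other PFC type overlapped this range, and NFO came next at 135 ± 58.6 CPM. A UMI of Nnat was seen in 57.9% of PFC OPC on average and in 1.51% of endothelial cells, with median depths of 1403 to 1919 and 2124 to 2756 UMIs. Mature oligodendrocytes held 8.46 ± 7.15 CPM, so the level was lower at each step from OPC to NFO to Oligo, without overlap between neighbours. The same order held in the striatum, at 945 ± 213, 267 ± 129 and 52.2 ± 28.6 CPM. The DL-Nnat subtype was named after this gene in the annotation, so its level of 284 ± 102 CPM is no result. SL-Cux2 neurons held only 2.10 ± 1.45 CPM, while free RNA in the PFC was at 50.1 to 98.4 CPM.

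In the striatum Nnat was spread over more types. NB held 1222 and 1462 CPM for WT and 992 and 685 CPM for Setd1a+/-, and D1 MSNs, D2 MSNs, interneurons and OPC had means of 709 to 945 CPM. Free RNA was at 468 to 693 CPM. The highest mean was that of the astrocyte annotation, with 1188 and 658 CPM for WT and 1488 and 1550.3 CPM for Setd1a+/-, which overlaps NB.

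The striatal astrocyte annotation was split by genes of motile cilia (Foxj1, Ccdc153, Tmem212 and Dynlrb2), a split chosen after the data were seen. Of its 857 cells, 61 (7.12%) held 3 or more UMIs of these genes, which were 10, 10, 32 and 9 cells in WT 1, WT 2, Setd1a+/- 1 and Setd1a+/- 2. Nnat in these cells reached 5987, 4254, 5402 and 3266 CPM in the same order, and 60 of the 61 cells had a UMI of it. They gave 81.5% of all Nnat UMIs of the annotation. The other 796 cells held 278, 356, 224 and 226 CPM, below the free RNA of the same library (693, 468, 566 and 506 CPM) in each case. The cells with cilia genes had less Slc1a3, an astrocyte glutamate transporter gene, at 512 to 683 CPM against 1693 to 2508 CPM in the others. Their median depth was 2939.5 to 9084 UMIs against 1848 to 2248.5 UMIs. No such cell was found among 554 PFC astrocytes, which allows a share of up to 0.542%. In both parts at most 1 cell per library lay 1 UMI from the threshold.

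**Figure D2:**
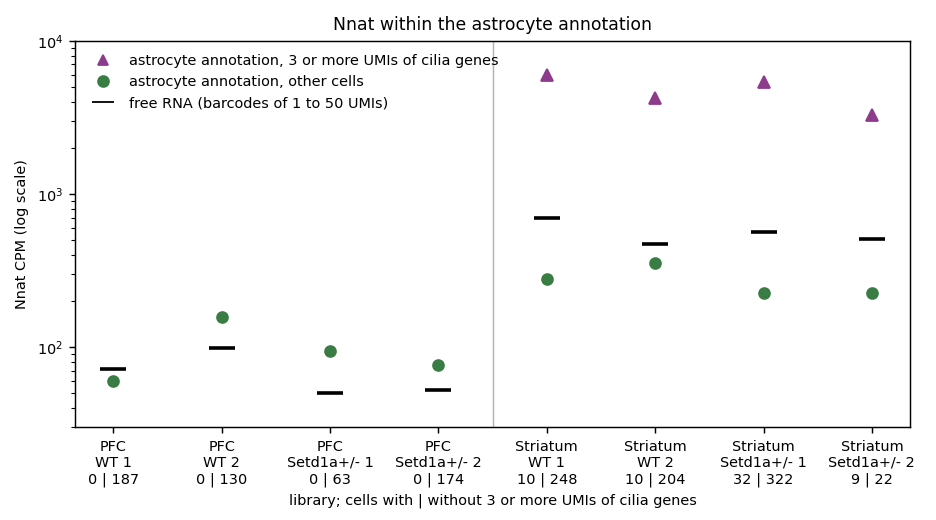
Nnat level (CPM, log axis) within the astrocyte annotation of each library. Triangles are cells with 3 or more UMIs of cilia genes, circles the other cells and black bars the free RNA, and the numbers under each library count the cells of both parts. The triangles lie between 3266 and 5987 CPM and occur in the striatum, while the circles lie below the bar in all 4 striatal libraries.

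Cdkn1c (ENSMUSG00000037664, chr7:143458339-143461050, minus strand) encodes p57Kip2, an inhibitor of cyclin-dependent kinases. It was highest in endothelial cells, with 35.1 and 37.1 CPM for WT and 33.8 and 41.0 CPM for Setd1a+/- of the PFC. In the striatum the endothelial level was 39.9 and 34.9 CPM for WT and 32.5 and 58.3 CPM for Setd1a+/-. These means are 798% and 1281% of the free RNA level. Cells of the endothelial annotation with 3 or more UMIs of mural markers (Rgs5, Kcnj8 and Vtn) held 37.5 CPM in the PFC and 43.6 CPM in the striatum, and made up 1042 of 1562 and 1402 of 1998 cells. The remaining cells without fibroblast markers held 26.4 and 19.8 CPM, and the few cells with fibroblast markers held 110.2 CPM (13 cells, 6 UMIs) and 52.5 CPM (17 cells, 4 UMIs). Among other types, PFC NFO held 18.9 ± 12.7 CPM, and the SL-Cux2 subtype 14.7 ± 4.59 CPM against 0.397 ± 0.794 CPM in DL-Foxp2 neurons, with no overlap. Striatal NFO held 17.7 ± 19.1 CPM from 6 UMIs and reached 42.3 CPM, which overlaps the endothelial range of that tissue. Igf2 (ENSMUSG00000048583, chr7:142650766-142666816, minus strand), a secreted growth factor, was barely detected. It gave 5 UMIs in PFC and 5 UMIs in striatal endothelial cells, all in cells with mural markers, and 0 in the other 7 PFC and 9 striatal types. A count of 0 allows 0.157 to 3.33 CPM over a type in the PFC and 0.231 to 6.04 CPM in the striatum.

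The shape of each profile was set beside those of 7494 genes over the 18 tissue-by-type groups, as Pearson's r of log2(CPM + 10). The points share libraries and annotation, and r is given as a description. Meg3 was most like Gap43 (r = 0.978), Scn2b and Gria1. Ndn was most like 5330434G04Rik (0.968), Scg5 and Bex1. Peg3 was most like Usp29 (0.951), its imprinted neighbour, followed by Bbs4 and Kantr. Snrpn was most like Rnf208 (0.956), 1500011B03Rik and Psmc5, and Impact most like Plekhb2 (0.957), Thy1 and Cnr1. Cdkn1c was most like Kif26a (0.934), Lama4 and Vwf. Dlk1 was most like Ankrd63 (0.92), Syndig1l and Strip2, and Nnat most like Tmem138 (0.925), Snrpa and Lypla2. Between members, r was highest for Snrpn with Ndn (0.91), and Meg3 with Dlk1 had 0.62, the highest r of Dlk1 with any member.

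Libraries of the same replicate number, a WT and a mutant sample per the study's methods, shared a difference in Snrpn. It was higher in the library numbered 2 than in that numbered 1 of the same genotype, for both genotypes, in 8 of 8 PFC types, 7 of 7 subtypes and 10 of 10 striatal types. In PFC excitatory neurons it held 1314 and 969 CPM in the libraries numbered 1 and 1999.5 and 2197 CPM in those numbered 2. Free RNA of Snrpn moved with it in the PFC, at 709.8 and 502 against 1233 and 1384 CPM, but not in the WT striatum, at 1011 against 800.4 CPM. In barcodes of 51 to 100 UMIs the WT striatum had the other order, at 1050.3 against 1133 CPM. Meg3 was lower in number 2 than in number 1 for both genotypes in 7 of 7 excitatory subtypes, in 2 of 8 PFC types (higher in 3) and in 5 of 10 striatal types (higher in 3), and the striatal Setd1a+/- library 2 was lowest in MSNs, at 6994 and 6458 CPM. Impact was lower in number 2 in 6 of 7 subtypes and higher in 7 of 10 striatal types. Ndn was higher in 4 and lower in 1 of 7 subtypes, lower in 3 of 8 PFC types (higher in 0) and higher in 3 of 10 striatal types (lower in 0). The part of free RNA in these differences was not tested. All groups of a tissue come from the same 4 libraries, and the subtypes are parts of the excitatory neurons, so the groups are not separate replicates. No share over all genes is given beside these counts. Same-numbered libraries also deviated together over all genes tested, with correlations of 0.11 to 0.6 over the PFC types and 0.1 to 0.4 over the striatal types.

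**Figure D3:**
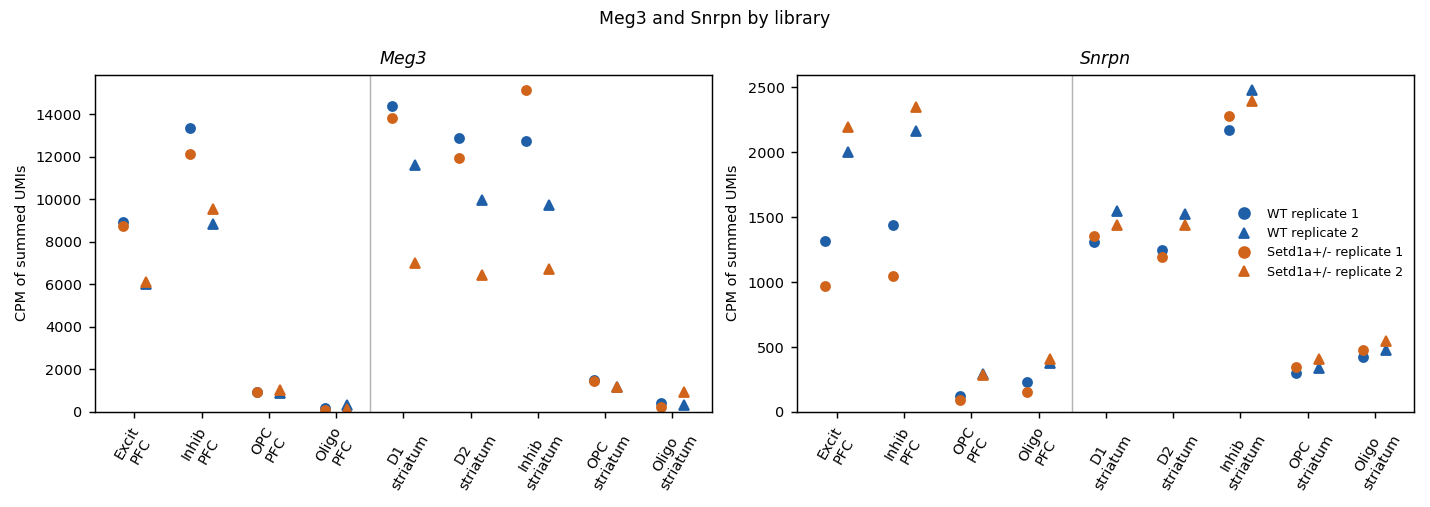
Meg3 (left panel) and Snrpn (right panel) as CPM per library in 4 PFC and 5 striatal types. Circles are libraries numbered 1 and triangles those numbered 2, blue WT and orange Setd1a+/-. In PFC excitatory neurons the Snrpn triangles (1999.5 and 2197 CPM) lie above the circles (969 and 1314 CPM) whatever the genotype.

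The first comparison asked whether Setd1a heterozygosity changed the members within a cell type. No member passed the test in any cell type or subtype. The edgeR quasi-likelihood test on summed UMIs called 0 of 41 member-type pairs in the PFC, 0 of 36 in the excitatory subtypes and 0 of 60 in the striatum at FDR under 0.05 and a fold over 1.5 (PFC) or 2 (striatum). Over all genes the same rule called 0%, 0% and 0.00544% of the pairs tested. At an unadjusted p under 0.05 edgeR gave 4, 4 and 7 member pairs, where 1.70%, 1.60% and 2.62% of all pairs were. DESeq2 called 0 members, with 3, 2 and 5 at that p. Over all genes DESeq2 gave 149 of 51145, 87 of 44783 and 364 of 73479 pairs at that p. Both Setd1a+/- libraries lay above both WT libraries in 5, 7 and 5 member pairs (12.0%, 13.2% and 12.9% over all genes) and below in 4, 4 and 10 (14.3%, 13.5% and 18.1%). With the replicate number as a block, all-gene calls were 26, 11 and 79 and member calls 0, 0 and 1.

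Ndn lay higher in Setd1a+/- PFC neurons before adjustment. In SL-Cux2 neurons it was 152 and 165 CPM for WT and 237 and 308 CPM for Setd1a+/- (log2 fold change 0.80 ± 0.28 SE). In DL-Etv1 neurons it was 132 and 139 against 209 and 264 CPM (0.82 ± 0.23), and in SL-Myh7 neurons 119 and 99.8 against 244 and 151 CPM (0.86 ± 0.33). Over all excitatory neurons it was 261 and 216 against 329.5 and 315 CPM (0.45 ± 0.18). Both mutant libraries exceeded both WT libraries in 6 of 6 tested subtypes, whose cells come from the same 4 libraries and are not separate replicates. In DL-Tshz2 neurons, the group with its highest level, the fold change was 0.68 ± 0.27 with an unadjusted p of 0.032 by edgeR and an adjusted p of 1. Interneurons held 329 and 221 CPM for WT and 391 and 735 CPM for Setd1a+/- (1.06 ± 0.36, adjusted p = 1 by edgeR). This pair passed the test, at 1.48 and an adjusted p of 0.00886, when the Setd1a+/- library 1 was left out, and was 0.51 (adjusted p = 0.771 by edgeR) without the Setd1a+/- library 2. Free RNA of Ndn was also higher in the mutant PFC libraries, at 266 and 295 CPM against 191 and 163 CPM. In barcodes of 51 to 100 UMIs it was 160.1 and 353 against 114 and 240.4 CPM, which overlap. The part of free RNA in the result was not tested. In D1 MSNs, Ndn was 177 and 173 CPM for WT and 199 and 331 CPM for Setd1a+/- (0.65 ± 0.23, adjusted p = 1 by edgeR). In striatal microglia the Setd1a+/- library 2 held 418 CPM, from 24 cells, against 31.2 to 64.4 CPM in the other libraries. The log2 fold change in microglia was 1.66 ± 0.88 with all libraries, whose ranges overlap between genotypes. It was 2.81 without Setd1a+/- library 1, which leaves the library of 24 cells alone in the mutant arm. Free RNA of Ndn in the striatum was 212 and 167 CPM for WT and 202 and 379 CPM for Setd1a+/-, highest in the same library 2. Its part in the striatal values was not tested.

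Dlk1 lay lower in Setd1a+/- in the 3 striatal types where it was tested, again without passing. The log2 fold change was -0.38 ± 0.16 in D1 MSNs and -0.60 ± 0.23 in D2 MSNs, with an adjusted p of 1 in edgeR. Interneurons held 44.7 and 17.3 CPM for WT and 7.39 and 8.49 CPM for Setd1a+/- (-1.90 ± 0.50, unadjusted p = 0.00179 and adjusted p = 1 by edgeR). Only the WT libraries lay above the minimum of the filter on low counts, so this pair entered the test through the genotype where it was high. The fit is therefore no separate support for a lower mutant level. Without WT library 2 this pair passed, at -2.42 and an adjusted p of 0.000191, whereas it was -1.06 without WT library 1 (adjusted p of 1 by edgeR) and -1.83 and -2.03 without Setd1a+/- library 1 or 2 (adjusted p of 0.135 and 0.278 by edgeR). Without the filter on low counts the adjusted p was 0.00308. Free RNA of Dlk1 was 29.2 and 27.4 CPM for the WT and 15.8 and 23.4 CPM in the mutant striatum, so both WT values lie above both mutant values. The D1 MSN markers (Drd1, Tac1 and Pdyn) summed to 203 and 303 CPM for WT and 186 and 151 CPM for Setd1a+/- interneurons. The part of both in the result was not tested.

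**Figure D4:**
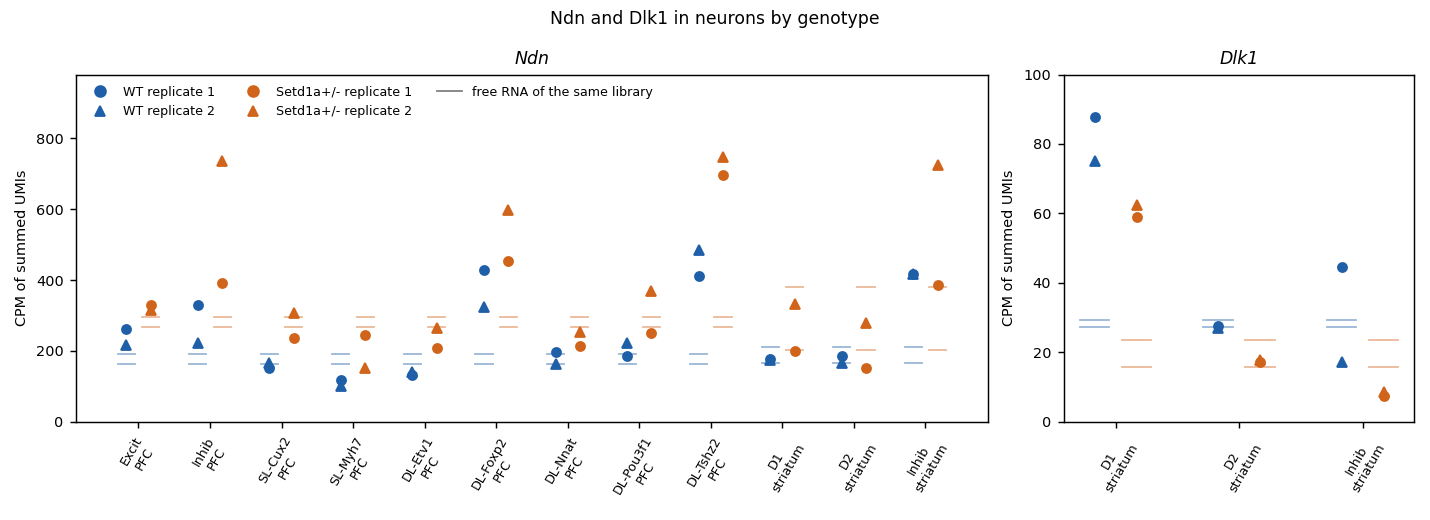
Ndn (left panel) in PFC and striatal neurons and Dlk1 (right panel) in striatal neurons, as CPM per library. Blue is WT and orange Setd1a+/-, circles are replicate 1 and triangles replicate 2, and thin lines give the free RNA of the same library. The orange Ndn points lie above the blue ones in all 6 tested subtypes (DL-Pou3f1 was not tested), and the orange Dlk1 points lie below the blue ones in all 3 types.

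Meg3 in striatal NFO had the lowest adjusted p of the members. It was 1364 and 1629.7 CPM for WT and 115 and 574 CPM for Setd1a+/-, which do not overlap. The log2 fold change was -2.50 ± 0.52, with an adjusted p of 0.245 in edgeR without the replicate block, 0.00208 with it and 5.39e-06 without the filter on low counts. Leaving out WT library 1, WT library 2 or Setd1a+/- library 2 also gave a call, with fold changes of -2.50, -2.32 and -3.63, whereas without Setd1a+/- library 1 the value was -1.35 with an adjusted p of 0.0644 by edgeR. These were 58 and 32 cells in WT and 53 and 22 cells in Setd1a+/-. The summed D1 and D2 MSN markers in the same NFO were 591 and 624 CPM for WT and 81.9 and 344 CPM for Setd1a+/-, in the same order as Meg3, and their part in the result was not tested. Nnat was also lower there, at 301 and 434 against 148 and 184 CPM (-1.15 ± 0.34, adjusted p = 0.95 by edgeR).

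The remaining pairs with a low unadjusted p were lower in Setd1a+/-. Nnat in PFC excitatory neurons was 87.4 and 129 CPM for WT and 69.1 and 46.3 CPM for Setd1a+/- (-0.92 ± 0.30). Free RNA of Nnat in the same libraries was 71.7 and 98.4 against 50.1 and 52.3 CPM. In barcodes of 51 to 100 UMIs it was 56.2 and 134 against 56.5 and 77.5 CPM, which overlap. Nnat in NB was 1222 and 1462 against 992 and 685 CPM (-0.62 ± 0.25). Meg3 in PFC oligodendrocytes was 177 and 336 CPM for WT and 103 and 127 CPM for Setd1a+/- (-1.09 ± 0.37). All 3 had an adjusted p of 1 in edgeR. The excitatory markers in these oligodendrocytes were 9.85 and 48.0 CPM for WT and 12.7 and 27.1 CPM for Setd1a+/-, which overlap. In the 4 subtypes tested, Nnat was at -1.46 (SL-Myh7), -1.41 (DL-Foxp2), -0.50 (DL-Nnat) and 0.43 (DL-Etv1), none passing. DL-Nnat neurons held 700606 of 3774408 and 1433835 of 7179639 excitatory UMIs for WT. For Setd1a+/- these were 663679 of 4676702 and 555116 of 3524078. The part of this mix was not tested. Without the filter on low counts Nnat passed in DL-Foxp2 neurons (-1.45). With 1 library left in an arm, it was -2.35 in SL-Myh7 (without WT 2) and -2.90 in DL-Tshz2 neurons (without WT 1). In DL-Foxp2 neurons it was -5.34 without Setd1a+/- 1, which left 69 mutant cells. In the striatum, leaving out Setd1a+/- 1 gave -1.63 for Meg3 in NB, 1.26 for Meg3 in oligodendrocytes and 2.81 for Ndn in microglia. No member named next passed in the type of its highest level, where log2 fold changes were -0.29 ± 0.29 for Meg3 in D1 MSNs, -0.30 ± 0.27 for Peg3 in PFC interneurons, 0.04 ± 0.26 for Impact in DL-Tshz2 neurons, 0.05 ± 0.17 for Snrpn in striatal interneurons and 0.19 ± 0.31 for Cdkn1c in striatal endothelial cells. Igf2 was too low to be tested.

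The next comparison set the striatum against the PFC within the 7 annotations that both tissues have. The tissues were dissociated and annotated separately, so that tissue and preparation cannot be told apart. Nnat passed the test as higher in 5 striatal types and Meg3 in 3, Snrpn, Ndn and Peg3 passed in microglia and endothelial cells and Dlk1 in interneurons, and none passed as lower. The edgeR test called 15 of 43 member-type pairs higher in the striatum at FDR under 0.05 and a fold over 2, where 4.21% of all genes were higher and 1.64% lower over the 7 types. The filter on low counts asks for its minimum in only as many libraries as a single group holds. A gene can thus enter through the striatum alone, where it is high. Among the PFC libraries alone, the filter removed Nnat, Peg3, Snrpn and Ndn in microglia and Nnat and Ndn in endothelial cells. Nnat in oligodendrocytes and Dlk1 in interneurons were also removed there. For such pairs the direction of a call is no separate result. Only 1 of the 15, Nnat in astrocytes, exceeded free RNA in all 4 striatal libraries, and 13 had a striatal mean below free RNA. Against barcodes of 51 to 100 UMIs, Meg3 in microglia also exceeded free RNA in all 4 striatal libraries. The exception of Nnat in astrocytes rests on the 61 cells of cilia genes, and the other 796 astrocytes lie below free RNA in all 4 striatal libraries. Free RNA of Nnat itself was 50.1 to 98.4 CPM in the PFC and 468 to 693 CPM in the striatum, and its part in the differences of Nnat was not tested.

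**Figure D5:**
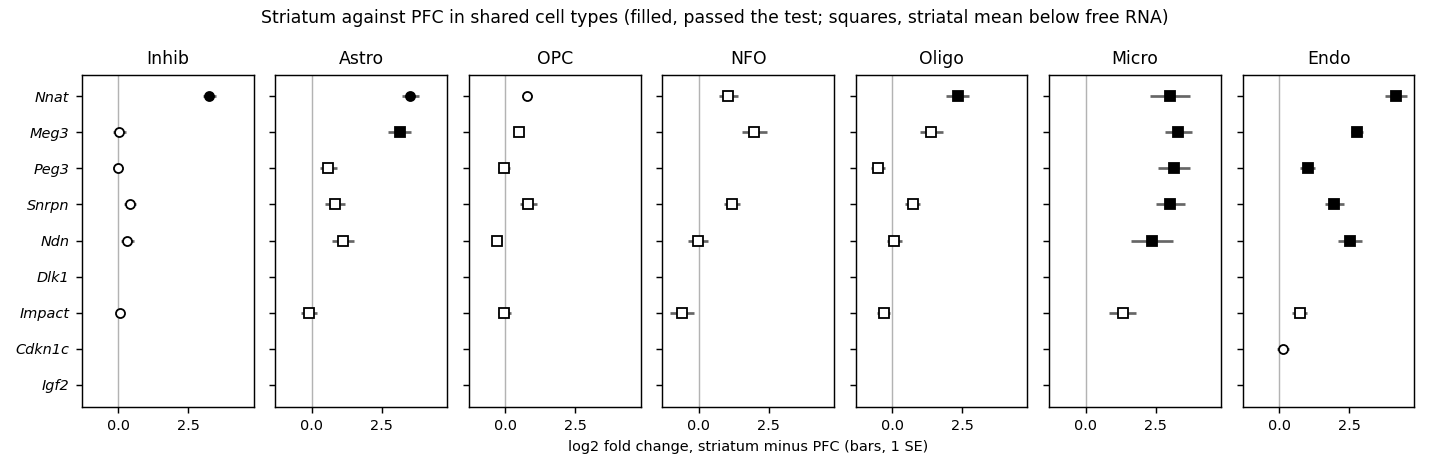
Log2 fold change between striatum and PFC (x axis, bars 1 SE) for the members tested in each of 7 shared types. Filled symbols passed the test and squares have a striatal mean below free RNA. Nnat in interneurons (3.25) and astrocytes (3.53) are filled circles, whereas all filled symbols of microglia and endothelial cells are squares. Dlk1 in interneurons is left out, because PFC libraries were at 0.

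In interneurons, 2 of 7 members passed (4.63% of all genes higher, 3.80% lower). Nnat was 53.3 to 121 CPM in the PFC and 466 to 864 CPM in the striatum, a log2 fold change of 3.25 ± 0.23 with an adjusted p of 2.35e-07 by edgeR. It exceeded free RNA in 3 of 4 striatal libraries. The annotations of the tissues also differed in other markers, since the 3 excitatory markers summed to 0 to 25.9 CPM in PFC and 259 to 391 CPM in striatal interneurons, and the interneuron markers to 8596 to 12008 CPM and 2877 to 6791 CPM. Their part in the values of interneurons between tissues was not tested. Dlk1 was 0 in all PFC interneuron libraries and 7.39 to 44.7 CPM in the striatum (adjusted p = 0.00193 by edgeR). The striatal mean of 19.5 CPM was 10.4-fold the limit of 1.87 CPM over the PFC group. This ratio is not a lower bound, because it leaves out the spread of the striatal libraries. Striatal WT library 1 held the 44.7 CPM. Without it the mean was 5.91-fold that limit, and Dlk1 was removed by the filter on low counts, which leaves no test. The striatal mean of Dlk1 was 81.3% of free RNA. The other 5 members differed by -0.02 to 0.43 in log2 fold change, with Peg3 at -0.02 ± 0.18 and Meg3 at 0.04 ± 0.22.

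In astrocytes, 2 of 6 members passed (8.29% higher, 2.33% lower). Nnat rose from 60.3 to 158 CPM in the PFC to 658 to 1550.3 CPM in the striatum (3.53 ± 0.32, adjusted p = 1.68e-06 by edgeR). Without the cells of cilia genes described above, the difference was 2.83-fold (SE 0.26 on the log2 scale) with an adjusted p of 0.00411 at a striatal level below free RNA, and 0.987% of all genes were then called higher. Meg3 rose from 126 ± 91.1 to 1250.4 ± 531 CPM (3.14 ± 0.42), and to a similar degree without those cells (3.22 ± 0.43). Its striatal level was 25.3% of free RNA, with the markers of D1 and D2 MSNs at 12.9% of theirs, and in the PFC these shares were 5.86% for Meg3 and 4.75% for the excitatory markers. The part of free RNA in this result was not tested. With a block of the replicate number over both tissues, Ndn also passed in astrocytes (1.21, adjusted p of 0.0325 by edgeR). The methods give this pairing only within a tissue.

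Without the replicate block, few members passed in the oligodendrocyte lineage. No member passed in OPC (0 of 6, 0.220% of genes higher and 0.0347% lower) or in NFO (0 of 5, 0.0531% and 0.0266%). At an unadjusted p under 0.05, edgeR gave 3 members in OPC (13.8% of all genes) and 3 in NFO (9.67%). With the same block over both tissues, Snrpn (1.31, adjusted p of 0.0122 by edgeR) and Meg3 (1.98, 0.0216) passed in NFO and Meg3 (1.39, 0.0219) in oligodendrocytes. Nnat in OPC was 428 to 716 CPM in the PFC and 659.7 to 1168 CPM in the striatum, with a log2 fold change of 0.78 ± 0.18 and an adjusted p of 0.0891 by edgeR. In oligodendrocytes 1 of 6 passed (1.05% higher, 1.07% lower), which was Nnat at 8.46 ± 7.15 against 52.2 ± 28.6 CPM (2.34 ± 0.41). Its level was 12.4% of free RNA in the PFC and 9.36% in the striatum, so it was not higher relative to free RNA.

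In microglia 5 of 6 members passed (12.2% higher, 5.26% lower) and in endothelial cells 5 of 7 (5.29% higher, 0.413% lower). Meg3 rose from 399.9 ± 279 to 4295 ± 1082 CPM in microglia (3.31 ± 0.49) and from 185 ± 31.1 to 1264 ± 339 CPM in endothelial cells (2.78 ± 0.21). Peg3 (3.17), Snrpn (3.02), Nnat (3.02) and Ndn (2.37) also passed in microglia, and Nnat (4.18), Ndn (2.53), Snrpn (1.97) and Peg3 (1.03) in endothelial cells. Leaving out PFC WT 1 or WT 2 moved the microglial values of Nnat to 2.31 or 4.91 and of Peg3 to 2.32 or 4.16, and leaving out PFC WT 2 moved Snrpn in microglia to 3.80 and Nnat in endothelial cells to 4.81, all still past the test. Relative to free RNA, Nnat in microglia was at 64.8% in the PFC and 60.2% in the striatum. Neuron markers were read for the main neurons of each tissue, so the genes differ between tissues. In striatal microglia the 6 markers of D1 and D2 MSNs summed to 1388 to 1987 CPM, 45.5% of free RNA, whereas the 3 excitatory markers in PFC microglia summed to 10.6 to 58.5 CPM, 6.82% of free RNA. For endothelial cells these were 12.3% and 2.84%. The excitatory markers themselves were lower in the striatum, at 1.05 against 34.2 CPM in microglia and 0.289 against 14.2 CPM in endothelial cells. The striatum has no excitatory annotation, and its free RNA held 42.8 CPM of these markers against 501 CPM in the PFC. They therefore do not compare neuronal RNA between the tissues. The part of the neuron markers in the result was not tested. Cdkn1c, the member highest in endothelial cells, was 36.7 ± 3.15 CPM in the PFC and 41.4 ± 11.7 CPM in the striatum (0.15 ± 0.22, adjusted p = 0.739 by edgeR). The call of Ndn in microglia was lost in 6 of 12 alternatives, which left out PFC WT 1, Setd1a+/- 1 or Setd1a+/- 2, or striatal WT 1, WT 2 or Setd1a+/- 2, with 1.41 without the last (adjusted p of 0.0542 to 0.181). The call of Peg3 in endothelial cells was lost in 8 of 12, with the replicate block (0.98) and without each library but PFC WT 2 (0.87 to 1.17, adjusted p of 0.0504 to 0.184).

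A test of the tissue-by-genotype interaction asked whether the genotype difference differed between the tissues. It called 0 of 43 member pairs in edgeR (0% of all genes), with 3 at an unadjusted p under 0.05 (2.21% of all genes). These were Meg3 in NFO (-2.45 ± 0.71), Nnat in NFO (-1.43 ± 0.64) and Meg3 in oligodendrocytes (1.63 ± 0.71), each with an adjusted p of 1. The term of Dlk1 in interneurons could not be estimated, since the PFC held no count. Meg3 in NFO passed without the striatal Setd1a+/- library 2, at -3.67 and an adjusted p of 0.0348 by edgeR.

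A list of 50 other imprinted genes, of which 48 had a row, was read from the same fits. Of these, 29 reached 20 CPM in some type, and 19 of the 29 were highest in a neuronal type or NB and 4 in endothelial cells. The count of the members above left NB out, and no share over all genes is given for either count. Nap1l5, a nucleosome assembly protein gene, had the highest CPM of the list, not corrected for capture, with 2939 ± 876 CPM in PFC interneurons. Gnas (794 ± 69.7 CPM), the gene of a stimulatory G protein, and Ube3a (744 ± 142 CPM), a ubiquitin ligase gene, peaked in striatal interneurons. Ppp1r9a (402 ± 23.7 CPM) was highest in D2 MSNs, Blcap (238 ± 33.1 CPM) in striatal interneurons and Kcnq1ot1 (233 ± 99.7 CPM) in PFC OPC. The next highest group lay within 1 SD for Nap1l5 (2658 CPM, striatal interneurons), Ube3a (615 CPM, PFC interneurons), Ppp1r9a (397 CPM, D1 MSNs) and Kcnq1ot1 (219 CPM, PFC excitatory neurons), so their order is not determined. None of 129, 139 and 190 gene-type pairs of this list passed the genotype test by edgeR in PFC types, subtypes and striatal types, with 1, 2 and 5 at an unadjusted p under 0.05. Between tissues 14 of 125 pairs passed as higher and 0 as lower in the striatum, where 4.21% of all genes were higher and 1.64% lower, and 9 of the 14 had a striatal mean below free RNA. The limit set by the filter, given above for the members, holds for these pairs too. Among the 14 were Peg10 (2.82 ± 0.44), Zdbf2 (1.71 ± 0.35) and Blcap (1.42 ± 0.27) in interneurons. Blcap, whose span holds Nnat, was 46.6 to 149 CPM in PFC and 194 to 273 CPM in striatal interneurons, which do not overlap. In astrocytes Ppp1r9a (1.02) and Rasgrf1 (3.13) passed, but not without the cells of cilia genes (0.88 with an adjusted p of 0.0979 and 2.88 with 0.106, by edgeR). Others that passed were, in microglia, Blcap, Nap1l5, Ube3a and Rasgrf1 (1.58 to 2.69), with striatal means of 36.6 to 139% of free RNA. In endothelial cells Ppp1r9a, Nap1l5, Dcn and Rasgrf1 passed (1.34 to 3.39), as did Usp29, the neighbour of Peg3, with 1 UMI in the PFC and 44 UMIs in the striatum. Of these 5 genes, Dcn alone lay above free RNA (896%), and the others were at 25.6% of it or less. The neuron markers given above for microglia and endothelial cells were also at a higher share of free RNA in the striatum, and their part in these results was not tested.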

How the data were processed

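Annotated cells of 8 single-cell libraries were analysed. Per the labels and the study's methods, the authors aligned reads to mm10 with Cell Ranger 3.0.2 and deposited UMI counts per gene and barcode for each library, with cell annotations made in Seurat 3.2.0 after removing cells of few genes or high mitochondrial share. The deposited counts were used as they are. The annotated cells held at least 800 genes each, and no doublet caller was applied here. Cell types were taken from the annotation, and no column of per-sample values was left out.

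UMIs were summed per cell type and library. CPM is per 1000000 UMIs of the type in that library, and SD is over the 4 libraries of a tissue. Free RNA is the CPM in barcodes of 1 to 50 UMIs, and barcodes of 51 to 100 UMIs were read as an alternative where stated. Genotype, tissue and interaction terms were tested with the quasi-likelihood test of edgeR 4.0.16 in R 4.3.3 (TMM scaling, low counts removed by filterByExpr at a minimum of 10, p-values adjusted by Benjamini-Hochberg over the genes of a type), two-sided, with genotype as a covariate between tissues. Types needed 10 cells in every library, which left out DL-Pou3f1 neurons, so 6 of 7 subtypes were tested. SE is the log2 fold change divided by the square root of the F statistic. The cutoffs between genotypes follow the study, whose own test over cells was not run, and the fold of 2 between tissues was set for this comparison. The scripts were tested on simulated data. Libraries rather than cells are the replicates, each a pool of 2 mice, and the intervals and limits of zero counts (3 UMIs) cover counting error only. Tables were made in Python 3.11.15 with pandas 2.3.3.

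The replicate number pairs a WT and a Setd1a+/- library per the study's methods. The deviations of same-numbered libraries from their group means correlated at 0.11 to 0.6 over the PFC types and 0.1 to 0.4 over the striatal types, and the fit with the number as a block was an alternative. Between tissues this block joined same-numbered libraries of both tissues, a pairing that the methods do not give. Other alternatives were library size alone, DESeq2 1.42.0, no filter on low counts and leaving out each library in turn.

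All members were named for levels. Genotype values were given for the group with each member's highest mean in WT and for each pair with an unadjusted p under 0.05, tissue values for all called pairs, and the 3 most alike genes for each member apart from Igf2, which reached only 1.23 CPM. Values outside this rule, and the split of astrocytes by cilia genes, were chosen after their values were seen. The members and gene lists were chosen with earlier results of these data known. Gene locations are from GENCODE vM21 and promoter sequences from RefSeq, both on GRCm38, the assembly of mm10.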

Additional observations from a re-analysis of the deposited data

How the results depend on the processing

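The number of member and tissue pairs with their highest mean in neurons was 12 under all 10 alternatives, a count that includes Dlk1 in the PFC, whose highest type is not determined. Of 160 alternative values of the named genotype fold changes, 148 kept direction and side of the threshold, 8 gained a call and 4 turned sign. With a library left out, Cdkn1c in striatal endothelial cells ranged from -0.17 (without Setd1a+/- 2) to 0.67, Impact in DL-Tshz2 neurons from -0.13 (without Setd1a+/- 1) to 0.18, Meg3 in D1 MSNs from -0.82 to 0.10 (without Setd1a+/- 2) and Snrpn in striatal interneurons from -0.05 (without WT 1) to 0.16. Of 181 alternative values of the called tissue differences, 167 kept their call and 14 lost it, all 14 for Ndn in microglia and Peg3 in endothelial cells.

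Genotype calls over all genes moved with the model. With the replicate block, that is with the pairing, there were 26 in PFC types, 11 in subtypes and 79 in striatal types, and the member call was 1, Meg3 in striatal NFO. The block changed no other genotype call of a member. Without a filter on low counts there were 63, 28 and 110 over all genes, with 1 member in subtypes and 2 in striatal types. DESeq2 gave 1 over all genes in PFC types. Leaving out one library at a time, which leaves 1 sample in an arm that is assumed to vary like the others, gave 25 to 122, 7 to 306 and 67 to 402 calls over all genes and 0 to 1, 0 to 1 and 1 to 3 over the members. The cause was not tested. Member calls between tissues were 5 without microglia and endothelial cells, by construction, 12 to 22 with a library left out, and 18 with the block over both tissues. Calls over all genes moved as well, from 2918 in the main fit to 2023 to 4299 with a library left out and 3485 with that block. That block added Ndn in astrocytes, Snrpn and Meg3 in NFO and Meg3 in oligodendrocytes and removed Peg3 in endothelial cells. Interaction calls were 0 to 1 with a library left out.

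Igf2 and, in the PFC, Dlk1 had too few UMIs to be tested between genotypes, and the limits given for counts of 0 do not tell a low level from absence.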
